A study of Mus musculus with 12 samples.

Results

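A set of 9 protein-coding genes of B cells and B cell follicles was followed across all 12 RNA-seq libraries of a mouse lung tumour series. They were Ms4a1, Cd79a, Cd79b, Pax5, Cd22, Fcmr, Cxcr5, Cxcl13 and Tnfrsf13c, taken by symbol as 9 of the 78298 gene identifiers in the deposited count table, and all 9 passed the filter on low counts that left 22190 genes for testing. The libraries came from LLC tumours visible in mouse lung (LLC, Lewis lung carcinoma, is a mouse tumour cell line) and from the normal lung dissected beside them. The mice had received HDM, which the series title gives as house dust mite, or VEH, a label that is not spelled out further. Tissue and treatment were crossed, which gave 4 groups (called normal or tumour, VEH or HDM, below) of 3 libraries each. Normal tissue was therefore lung from tumour-bearing animals in both arms, and no tumour-free lung was among these groups. Strain, age, sex, dose and exposure time were not given in the sources used here. Nothing in the labels says that libraries of a group came from separate animals, so p-values measure only the spread between these samples.

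B cells recognise antigen through a surface immunoglobulin held in a complex with the signalling chains Cd79a and Cd79b. Pax5 is the transcription factor that keeps the B cell programme in place, and Ms4a1 (CD20), Cd22 and Fcmr are surface proteins of mature B cells. Within lymphoid tissue the chemokine Cxcl13, made mostly by stromal and follicular dendritic cells, draws cells with its receptor Cxcr5 into follicles, and the BAFF receptor Tnfrsf13c carries a survival signal. Lung that is inflamed over a long time can form such follicles around airways and vessels.

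Promoter sequence for 6 of the 9 genes (Cd79a, Pax5, Cd22, Fcmr, Cxcl13 and Tnfrsf13c) was taken from the RefSeq promoter table. It covers 250 bases before to 50 bases after the start listed there, which can differ from the end of the gene span given below. The table is on GRCm38.p6, and each of these windows matched its GRCm39 chromosome at exactly 1 place, so that GRCm39 positions are given. Both strands were searched for the octamer bound by Oct factors (ATTTGCAT), an EBF1 motif (CCCNNGGGA), the PU.1 core (GAGGAA) and an NF-kappa-B motif (GGGANNTTC). These 4 windows are shown 5′ to 3′ on the gene's strand, with matches in capitals. Cd79a and Fcmr stand for the members that were lower in tumours in both arms, Cd22 for the member that varied most among normal libraries, and Cxcl13 for the follicle chemokine. They lie at chr7:24596672-24596971 (plus strand, Cd79a), chr1:130793264-130793563 (plus strand, Fcmr), chr7:30578404-30578703 (minus strand, Cd22) and chr5:96104548-96104847 (plus strand, Cxcl13).
Cd79a: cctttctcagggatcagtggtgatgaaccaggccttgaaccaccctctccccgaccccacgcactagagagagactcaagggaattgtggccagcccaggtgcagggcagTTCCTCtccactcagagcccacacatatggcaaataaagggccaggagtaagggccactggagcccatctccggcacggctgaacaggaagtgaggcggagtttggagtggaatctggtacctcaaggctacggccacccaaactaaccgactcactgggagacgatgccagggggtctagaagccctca
Fcmr: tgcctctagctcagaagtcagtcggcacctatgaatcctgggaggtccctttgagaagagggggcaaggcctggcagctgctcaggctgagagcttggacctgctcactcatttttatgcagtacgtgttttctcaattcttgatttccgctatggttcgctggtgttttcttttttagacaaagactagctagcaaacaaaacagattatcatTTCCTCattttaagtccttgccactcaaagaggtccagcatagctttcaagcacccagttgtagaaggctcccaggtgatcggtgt
Cd22: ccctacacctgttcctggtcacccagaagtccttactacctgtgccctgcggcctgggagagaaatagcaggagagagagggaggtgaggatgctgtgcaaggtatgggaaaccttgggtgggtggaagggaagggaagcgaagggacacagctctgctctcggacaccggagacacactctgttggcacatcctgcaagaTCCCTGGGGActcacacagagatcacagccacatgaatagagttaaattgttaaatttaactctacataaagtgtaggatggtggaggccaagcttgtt
Cxcl13: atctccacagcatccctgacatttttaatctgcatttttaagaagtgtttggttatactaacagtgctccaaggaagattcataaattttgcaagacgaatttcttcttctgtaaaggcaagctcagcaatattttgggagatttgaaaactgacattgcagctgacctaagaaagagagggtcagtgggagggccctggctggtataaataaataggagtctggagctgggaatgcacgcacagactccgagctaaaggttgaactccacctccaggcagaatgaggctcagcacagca
The Cd79a window held 1 PU.1 match, on the minus strand and so printed as its reverse complement, as did the Fcmr window. The Cd22 window held an EBF1 match on each strand, and the 2 overlap in the capitals shown. That window lies wholly inside the Cd22 gene span, chr7:30564827-30579767, and does not hold the start of that span. No match to any of the 4 motifs was found in the Cxcl13, Pax5 or Tnfrsf13c window. Among 32544 windows of the same length, 28.1% held the PU.1 letters, 6.6% the EBF1 letters, 3.94% the NF-kappa-B letters and 1.75% the octamer. The matches are a description of letters, not of binding.

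Library totals ran from 20608682 to 32765364 counts. In the submitted library names, the prefix M_40_2 is shared by normal VEH replicate 2 and tumour HDM replicate 2, and M_37_3 by normal HDM replicate 3 and tumour VEH replicate 3, so that those 4 libraries join different treatments under 1 prefix. The other 4 prefixes each hold libraries of 1 treatment. All libraries carry the same batch label. Tumour HDM replicate 3 stood apart in lung markers: the alveolar gene Sftpc was at 3.12 CPM there, against 982 to 4680 CPM in the other 5 tumour libraries and 8500 to 25200 CPM in normal lung. CPM here is the count scaled to a common, normalised library size (TMM).

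Per gene length, the antigen receptor chains were the most abundant of the 9 genes in normal lung. Mean TPM (a transcript share that corrects for gene length) in normal VEH lung was 22.5 ± 11.2 for Cd79b and 22.4 ± 10.9 for Cd79a (SD, n = 3), levels that do not differ beyond their spread. Cxcl13 followed at 9.71 ± 4.89 TPM and Fcmr at 6.32 ± 4.15 TPM, which overlap. Cd22 was at 4.58 ± 5.84 TPM, Cxcr5 at 2.95 ± 0.800, Pax5 at 1.76 ± 0.930, Ms4a1 at 1.57 ± 0.208 and Tnfrsf13c at 1.44 ± 0.540 TPM, and the last 3 lie within each other's spread. In tumours under HDM the order of mean TPM again began with Cd79b (5.22 ± 2.73) and Cd79a (4.36 ± 3.05) and ended with Ms4a1 (0.377 ± 0.201) and Tnfrsf13c (0.343 ± 0.352).

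**Figure D1:**
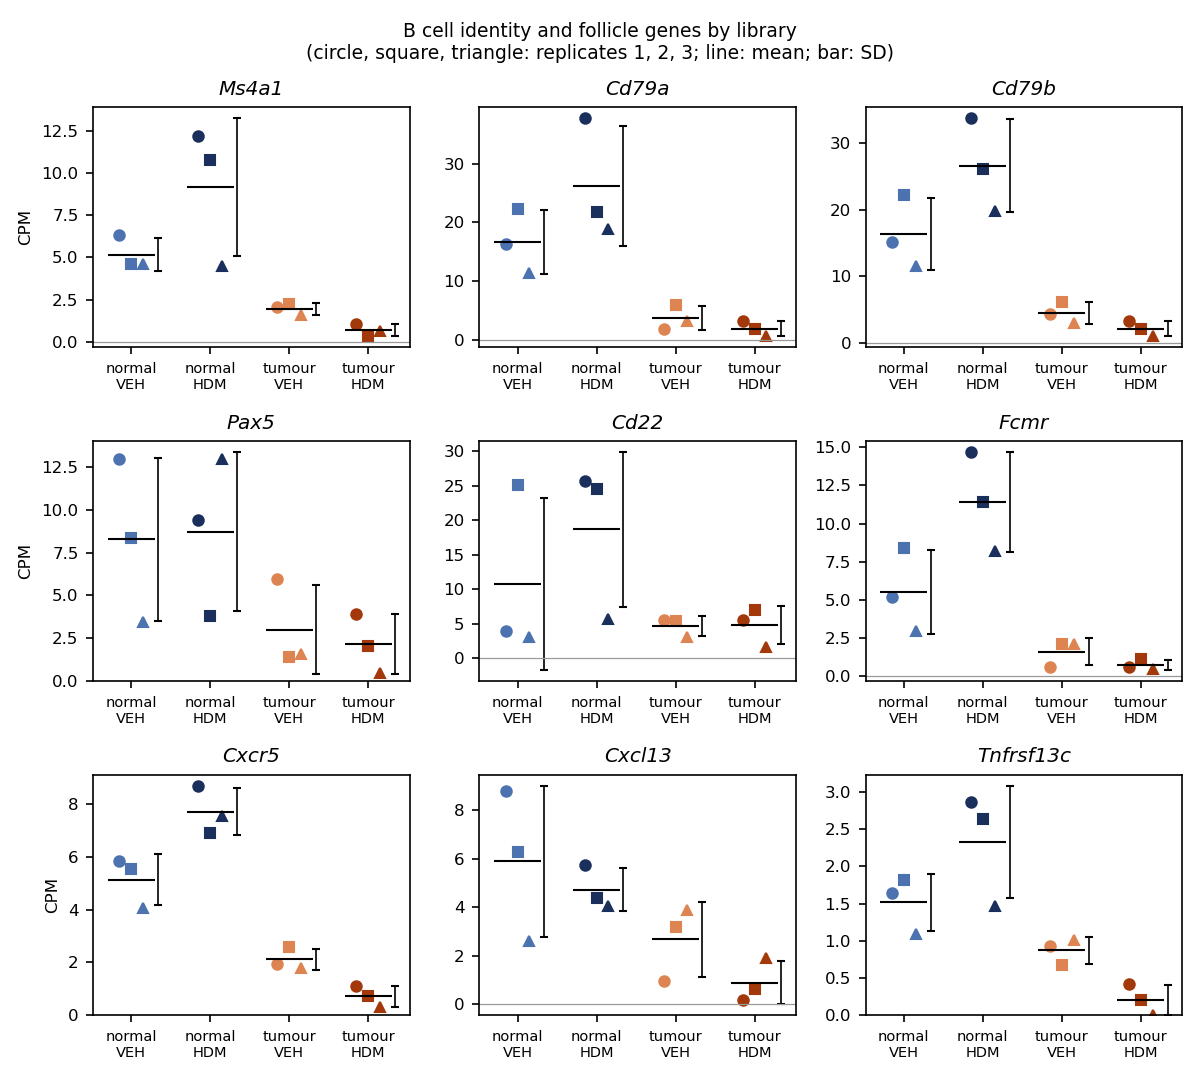
CPM of each of the 9 genes in each library (vertical axes, each with its own linear scale) by group (horizontal axis); points are single libraries, lines are group means and bars are the SD of 3 libraries. For Ms4a1, Cd79a, Cd79b, Fcmr, Cxcr5 and Tnfrsf13c every tumour library lies below every normal library of the same treatment.

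Under VEH, 5 of the 9 genes were lower in tumours than in adjacent lung: Ms4a1, Cd79a, Cd79b, Fcmr and Cxcr5, by log2 changes of -1.28 to -2.18. None was higher. Among all genes tested, 20.6% were called lower and 18.2% higher in this comparison (edgeR quasi-likelihood test, Benjamini-Hochberg adjusted p below 0.05), so calls were common. The median log2 change was -1.41 over the 9 members and -0.11 over all genes. These are whole pieces of tissue, in which fewer B cells and less of these RNAs per B cell cannot be told apart.

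The antigen receptor chains had the largest log2 changes of the members in value under VEH, though that of Fcmr lay within their errors. Cd79a (chr7:24596740-24601622, plus strand) was at 16.3, 22.2 and 11.3 CPM in the normal VEH libraries and at 1.87, 5.88 and 3.23 CPM in the tumour VEH libraries. The groups did not overlap, and Cd79a fell by 2.18 ± 0.58 on the log2 scale (SE, adjusted p = 0.0146, edgeR), to 0.221 times its level in normal lung. Cd79b (chr11:106202167-106205588, minus strand), its partner chain, was at 15.2, 22.2 and 11.6 CPM in normal lung and at 4.33, 6.25 and 3.05 CPM in tumours. Here too every tumour library lay below every normal one (log2 change -1.85 ± 0.43, adjusted p = 0.00745, edgeR). A long noncoding gene, Gm72234, lies opposite Cd79a, with 1531 counts in all libraries against 3806 for Cd79a. It too was lower in tumours, at 6.24, 9.28 and 4.80 CPM in normal VEH lung and 1.78, 2.60 and 1.01 CPM in VEH tumours. Under HDM Gm72234 was at 12.1, 10.9 and 6.59 CPM in normal lung and 1.15, 0.888 and 0.546 CPM in tumours. The libraries were made with a strand-marking kit, but the strand setting of the counting was not given in the sources used here, so reads of such opposite pairs may not have been separated.

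Surface proteins of mature B cells divided into 2 that were called and 1 that was not. Ms4a1 (chr19:11227039-11243605, minus strand), the CD20 protein, was at 6.32, 4.59 and 4.59 CPM in normal VEH lung and at 2.04, 2.23 and 1.57 CPM in tumours, with no overlap (log2 change -1.41 ± 0.45, adjusted p = 0.0318, edgeR). Fcmr (chr1:130793406-130808528, plus strand), the receptor for the constant part of IgM, was at 5.17, 8.40 and 2.95 CPM in normal lung and at 0.595, 2.08 and 2.12 CPM in tumours, again without overlap (log2 change -1.78 ± 0.55, adjusted p = 0.0266, edgeR). Cd22 (chr7:30564827-30579767, minus strand), an inhibitory co-receptor that binds sialic acid, was at 3.98, 25.1 and 3.12 CPM in normal lung and at 5.61, 5.35 and 3.09 CPM in tumours. A single normal library, replicate 2, held the high value, and the groups overlapped (log2 change -1.20 ± 0.85, adjusted p = 0.275, edgeR). Without that library the Cd22 log2 change was 0.40, with the sign turned.

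Of the follicle receptor and its ligand, only the receptor passed the test under VEH, and the difference between the pair was not tested. Cxcr5 (chr9:44423083-44473174, minus strand) was at 5.83, 5.54 and 4.04 CPM in normal lung and at 1.95, 2.57 and 1.80 CPM in tumours, with no overlap (log2 change -1.28 ± 0.41, adjusted p = 0.0299, edgeR). Cxcr5 overlaps the far more abundant Bcl9l on the opposite strand, with 24134 counts for Bcl9l and 1226 for Cxcr5 over all libraries. Bcl9l itself was at 54.7 to 106 CPM in the 12 libraries, and its groups overlapped under VEH. Under HDM Bcl9l was at 85.8, 106 and 96.5 CPM in normal lung and at 84.3, 59.6 and 54.7 CPM in tumours. Every HDM tumour thus lay below every normal HDM library for Bcl9l, the same direction as for Cxcr5. Cxcl13 (chr5:96104810-96108927, plus strand) was at 8.79, 6.29 and 2.61 CPM in normal lung and at 0.935, 3.20 and 3.88 CPM in tumours. Its groups overlapped, since normal replicate 3 lay below 2 of the tumours (log2 change -1.14 ± 0.75, adjusted p = 0.238, edgeR).

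The lineage factor and the BAFF receptor did not pass the test under VEH. Pax5 (chr4:44524757-44710487, minus strand) ranged from 3.45 to 13.0 CPM in normal lung and from 1.41 to 5.99 CPM in tumours (log2 change -1.47 ± 0.83, adjusted p = 0.176, edgeR). Tnfrsf13c (chr15:82105944-82108580, minus strand) was at 1.64, 1.82 and 1.09 CPM in normal lung and at 0.935, 0.669 and 1.01 CPM in tumours. Its groups did not overlap, but the difference was small beside its error (log2 change -0.80 ± 0.76, adjusted p = 0.415, edgeR). In all, 6 of the 9 members were lower in every tumour library than in any normal one, a pattern that 28.5% of all genes shared.

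The calls under VEH changed when single libraries or the 4 libraries with conflicting prefixes were left out. Leaving out the 4 takes 1 library from each group, and a prefix block leaves less data to estimate the spread. Lost power and an effect of those libraries cannot be told apart here. Without those 4 libraries 0 of the 9 members passed the test and 1 had an unadjusted p below 0.05, and with the prefix as a block 0 passed and 2 had an unadjusted p below 0.05 (edgeR). Of all genes, 9.23% and 12.3% were called lower in these fits. Their log2 changes without the 4 libraries stayed between -1.02 and -1.73 for the 5 called genes, while Cd22 turned to 0.73. Leaving out tumour VEH replicate 1 or tumour VEH replicate 3 left 1 call, Cd79b. Leaving out normal VEH replicate 1 left 2, Cd79a and Cd79b, and leaving out normal VEH replicate 2 left 3, these and Ms4a1. In the order named, these fits called 2451 of 23204, 2477 of 23174, 3321 of 23083 and 4494 of 23126 genes lower.

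Under HDM, 7 of the 9 genes fell in tumours: Ms4a1, Cd79a, Cd79b, Fcmr, Cxcr5, Cxcl13 and Tnfrsf13c. Over all genes, 28.9% were called lower and 23.0% higher (edgeR). The median log2 change of the 9 members was -3.52, against -0.08 over all genes. Of the members, 7 had no overlap between the groups with tumours lower, as had 33.5% of all genes.

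Cd79a was at 37.8, 21.8 and 18.9 CPM in normal HDM lung and at 3.12, 1.84 and 0.607 CPM in HDM tumours. That is a 14.1-fold lower level (log2 change -3.82 ± 0.63, adjusted p = 0.000778, edgeR), with tumour replicate 3 the lowest. Cd79b was at 33.7, 26.1 and 19.8 CPM in normal lung and at 3.29, 2.19 and 1.09 CPM in tumours, in the same order of libraries (12.2-fold lower, adjusted p = 0.000229, edgeR).

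Ms4a1 was at 12.2, 10.8 and 4.49 CPM in normal HDM lung and at 1.03, 0.342 and 0.667 CPM in tumours, where 10 to 25 counts stood behind each value (13.5-fold lower, adjusted p = 0.00028, edgeR). Fcmr had the largest change of the 9, from 14.7, 11.4 and 8.18 CPM to 0.575, 1.09 and 0.485 CPM (log2 change -3.98 ± 0.60, adjusted p = 0.000506, edgeR). Cd22 was at 25.7, 24.6 and 5.71 CPM in normal lung and at 5.54, 7.04 and 1.70 CPM in tumours. Normal replicate 3 lay below tumour replicate 2, and Cd22 did not pass the test (log2 change -1.97 ± 0.87, adjusted p = 0.0789, edgeR).

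Both genes of the follicle axis fell under HDM. Cxcr5 was at 8.68, 6.91 and 7.55 CPM in normal lung and at 1.11, 0.717 and 0.303 CPM in tumours (10.9-fold lower, adjusted p = 0.000246, edgeR). Cxcl13 was at 5.73, 4.38 and 4.05 CPM in normal lung and at 0.164, 0.615 and 1.88 CPM in tumours, so that the groups were apart but the tumours were spread widely (log2 change -2.39 ± 0.79, adjusted p = 0.0258, edgeR). The tumour with the most Cxcl13, replicate 3, was the one with the least Cd79a, Cd79b and Cxcr5. The Cxcl13 call was lost without normal HDM replicate 1 (adjusted p = 0.0623), tumour HDM replicate 1 (0.0693) or tumour HDM replicate 2 (0.0916), with the prefix as a block (0.083) and without the 4 libraries of conflicting prefixes (0.161), and over all alternatives its log2 change ran from -3.43 to -1.82.

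Tnfrsf13c was at 2.87, 2.64 and 1.47 CPM in normal HDM lung and at 0.411, 0.205 and 0 CPM in tumours (log2 change -3.52 ± 0.86, adjusted p = 0.00619, edgeR). The counts behind the tumour values were 10, 6 and 0, so the size of this change rests on few reads. Without the 4 libraries of conflicting prefixes Tnfrsf13c had an adjusted p of 0.0581 (edgeR). Pax5 was at 9.42, 3.78 and 13.0 CPM in normal lung and at 3.94, 2.05 and 0.455 CPM in tumours, with normal replicate 2 inside the tumour range (log2 change -2.03 ± 0.85, adjusted p = 0.0659, edgeR). Pax5 and Cd22 each had an unadjusted p below 0.05, as had 57.9% of all genes, and a DESeq2 Wald test called both, where it called 32.6% of all genes lower. Without the 4 libraries of conflicting prefixes, 6 members were called lower under HDM, as were 18.0% of all genes: Cxcl13 and Tnfrsf13c dropped out, and Cd22 came in (log2 change -2.68, adjusted p = 0.0135, edgeR). Without tumour HDM replicate 3, which had the lowest alveolar markers, the same 7 as in all libraries were called.

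**Figure D2:**
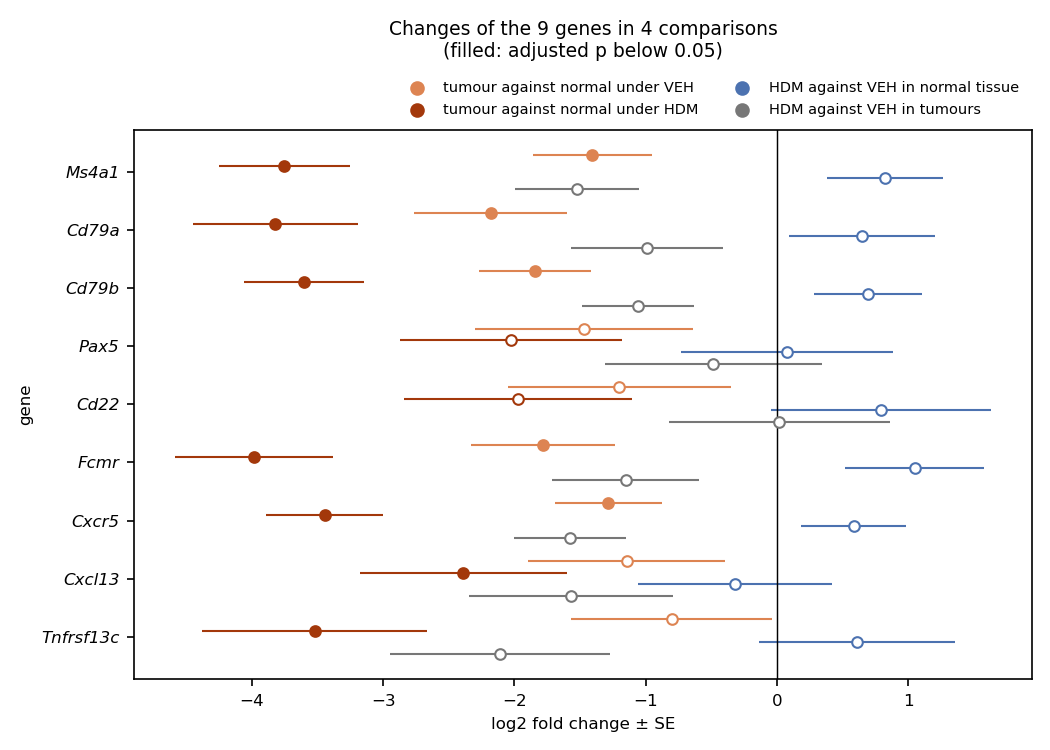
Log2 fold change with its standard error (horizontal axis) for each of the 9 genes (vertical axis) in the 4 comparisons between groups, with filled points for an adjusted p below 0.05 in edgeR. Tumour against normal lung is below 0 for all 9 genes in both arms, with 5 filled points under VEH and 7 under HDM, and no point is filled for HDM against VEH.

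HDM against VEH gave no called member in either tissue. In normal lung 0 of the 9 members passed the test (edgeR; 0 had an unadjusted p below 0.05, and a DESeq2 Wald test called 0), as did 0.0% of all genes, although 5.54% of all genes had an unadjusted p below 0.05 and the Wald test called 0.194%. The median log2 change of the members was 0.65, against -0.01 over all genes, and 8 of the 9 had a positive value, Cxcl13 being the exception at -0.32 ± 0.74. Only Cxcr5 had every HDM library above every VEH library (log2 change 0.59 ± 0.40, adjusted p = 0.926, edgeR), which 4.47% of all genes also showed. The largest value was that of Fcmr, at 1.05 ± 0.53 (adjusted p = 0.887, edgeR).

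In tumours 0 of the 9 members passed the test between HDM and VEH (edgeR), where 0.0946% of all genes did, and 4 had an unadjusted p below 0.05: Ms4a1, Cd79b, Cxcr5 and Tnfrsf13c. The median log2 change of the members was -1.15, against -0.03 over all genes, and 8 of the 9 values were negative. Ms4a1, Cxcr5 and Tnfrsf13c were lower in every HDM tumour than in any VEH tumour, which 10.7% of all genes were too. As many as 16.7% of all genes had an unadjusted p below 0.05 here. A DESeq2 Wald test called these 3 lower, as it did 4.76% of all genes: Ms4a1 (log2 change -1.56, adjusted p = 0.0334), Cxcr5 (-1.63, adjusted p = 0.00551) and Tnfrsf13c (-2.17, adjusted p = 0.0427). In edgeR their log2 changes were -1.52 ± 0.47, -1.58 ± 0.42 and -2.11 ± 0.84, with adjusted p of 0.199, 0.165 and 0.257. The log2 change of Cd22 was 0.02 ± 0.85, an error that leaves room for a change of either sign.

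The tumour-to-lung difference was larger under HDM than under VEH for all 9 members in value, and the interaction of tissue and treatment was called for 0 of them (edgeR), as for 0.0% of all genes. The median interaction was -1.76 on the log2 scale over the members and -0.02 over all genes, and 5 members had an unadjusted p below 0.05, as had 9.39% of all genes. Cxcr5 had an interaction of -2.16 ± 0.58 (adjusted p = 0.425) and Ms4a1 of -2.35 ± 0.65 (adjusted p = 0.455) in edgeR. A DESeq2 Wald test called these 2 (Ms4a1 adjusted p = 0.0399, Cxcr5 adjusted p = 0.0158), both negative, as were 0.834% of all genes called by it. The comparisons under one treatment and those within one tissue share libraries, so their values are not independent.

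Other B cell genes, a list of 22 with 21 tested, were mostly lower in tumours under HDM and mixed under VEH. Under HDM 14 of 21 fell and 1 rose, where 28.9% of all genes fell, with a median log2 change of -2.66. The fallen genes included Cr2, the complement receptor of B cells and follicular dendritic cells (-3.34 ± 1.05), Fcer2a, the low-affinity IgE receptor (-3.54 ± 0.68), and Vpreb3 (-5.44 ± 1.41). Under VEH 5 of 21 fell, among them the kinase Blk (-2.69 ± 0.82) and Fcrl1 (-2.34 ± 0.63), and 3 rose, near the shares of all genes that fell (20.6%) and rose (18.2%), with a median of -0.91. The risers under VEH were Spib, Cd72 and Cd180, and the riser under HDM was Ebf1, all named after their values were seen. Spib is also a factor of plasmacytoid dendritic cells, and Cd72 and Cd180 are also found on myeloid cells. Without the 4 libraries of conflicting prefixes, 0 fell and 3 rose under VEH, and 8 fell and 1 rose under HDM. Of all genes, 9.23% fell under VEH and 18.0% under HDM without them. Under VEH, 1 fell without tumour replicate 1 and 2 without tumour replicate 3, where 2451 of 23204 and 2477 of 23174 genes did.

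The signalling genes downstream of the antigen receptor were mostly not called. Of 16 tested, 2 fell and 1 rose in tumours under VEH (median 0.13), and 4 fell and 0 rose under HDM (median -0.41). Over all genes, 20.6% fell and 18.2% rose under VEH, and 28.9% fell and 23.0% rose under HDM. The fallen counts were thus near or below those of all genes. Syk, Blnk and Btk, which other blood cells also use, had log2 changes of -0.17 ± 0.58, 0.38 ± 0.28 and 0.42 ± 0.50 under VEH and none passed in either arm. Rasgrp3, an activator of Ras, fell in both arms (-2.16 ± 0.38 and -3.21 ± 0.40). Without tumour HDM replicate 3, 2 signalling genes fell under HDM, where 4842 of all 23096 genes did. Without the 4 libraries of conflicting prefixes 4 rose and 1 fell under VEH, where 3534 of all 22414 genes rose and 2069 fell.

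In the BAFF and APRIL system, 2 of 9 genes rose and 2 fell under VEH, and 2 rose and 3 fell under HDM, counts near the shares over all genes (18.2% and 20.6% under VEH, 23.0% and 28.9% under HDM). The ligand BAFF, Tnfsf13b, was at 27.5, 11.1 and 13.9 CPM in normal VEH lung, 23.6, 22.0 and 29.9 in normal HDM lung, 11.2, 8.89 and 7.29 in VEH tumours and 2.30, 3.01 and 0.667 CPM in HDM tumours. The HDM tumours were the lowest of the 4 groups, and Tnfsf13b fell by 3.66 ± 0.53 on the log2 scale against normal lung under HDM (adjusted p = 0.000407, edgeR). Its change under VEH was -0.94 ± 0.48 (adjusted p = 0.136). APRIL, Tnfsf13, fell in both arms (-2.01 ± 0.55 and -2.60 ± 0.56). Nfkb2, the noncanonical NF-kappa-B subunit that the BAFF receptor acts through, rose in both arms (1.61 ± 0.22 and 1.22 ± 0.22). Without tumour VEH replicate 1, or without tumour VEH replicate 3, 0 genes of this list fell under VEH (edgeR). Of all genes, 2451 of 23204 and 2477 of 23174 fell in these fits.

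Of 17 genes of lymphoid tissue and the follicle niche, 4 fell under VEH (median -1.02), which is near the 20.6% of all genes, and 12 fell under HDM (median -2.31), where 28.9% of all genes did. In both arms 0 rose. Cxcl12, a stromal chemokine, fell in both (-2.59 ± 0.51 and -4.51 ± 0.56). Under HDM the T zone chemokines Ccl19 (-2.93 ± 1.13) and Ccl21a (-3.14 ± 1.16), their receptor Ccr7 (-1.54 ± 0.39) and lymphotoxin beta, Ltb (-2.16 ± 0.42), fell as well. None of these 4 passed under VEH, where Ccr7 was at 0.93 ± 0.38 and Ltb at 0.11 ± 0.40. Ccl21a also marks lymphatic vessels. Cr2 and Fcer2a belong to both this list and the list of other B cell genes. Without the 4 libraries of conflicting prefixes, 1 niche gene fell and 1 rose under VEH, and 8 fell under HDM. Of all genes, 9.23% fell under VEH and 18.0% under HDM without them. Leaving out tumour VEH replicate 1 or tumour VEH replicate 3 left 2 niche genes lower under VEH. These fits called 2451 of 23204 and 2477 of 23174 genes lower.

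Of 8 germinal centre and follicular helper genes tested, 3 rose and 0 fell under VEH, where 18.2% of all genes rose. The other 5 were not called, among them Bcl6 (-0.34 ± 0.27) and Gcsam (-0.24 ± 0.68). The called genes were S1pr2 (1.42 ± 0.20), the costimulator Icos (2.14 ± 0.58) and the checkpoint receptor Pdcd1 (5.02 ± 1.19), the latter pair also being genes of activated T cells in general. Under HDM S1pr2 rose (0.71 ± 0.20) while Icos (-2.35 ± 0.61) and Gcsam (-2.98 ± 0.73) fell, where 23.0% of all genes rose and 28.9% fell. Of 12 plasma cell genes, 6 fell and 1 rose under VEH and 6 fell and 2 rose under HDM. Over all genes, 20.6% fell and 18.2% rose under VEH, and 28.9% fell and 23.0% rose under HDM. Mzb1, a chaperone of antibody-secreting cells, fell in both arms (-2.53 ± 0.88 and -4.46 ± 0.95), and Xbp1, the factor of the secretory programme, fell under HDM (-0.86 ± 0.23), its change under VEH being -0.27 ± 0.23. Under VEH 0 plasma cell genes fell without tumour replicate 1 or without tumour replicate 3, where 2451 of 23204 and 2477 of 23174 genes did. Without the 4 libraries of conflicting prefixes, 1 plasma cell gene fell and 2 rose under VEH, and 1 germinal centre gene rose. There 2069 of 22414 genes fell and 3534 rose. Under HDM without those libraries, 8 plasma cell genes fell and 2 rose, and 1 germinal centre gene rose. In that comparison 4029 of 22414 genes fell and 4476 rose. For HDM against VEH 0 of the 78 tested genes of all these lists were called by edgeR in either tissue, with an unadjusted p below 0.05 for 4 in normal lung and 17 in tumours, and a DESeq2 Wald test called 0 and 11. The shares over all genes were 5.54% and 16.7% for the unadjusted p and 0.194% and 5.91% for the Wald test. In the interaction edgeR called 0 of the 78, with 19 at an unadjusted p below 0.05 (9.39% of all genes), and the Wald test called 8 (1.0% of all genes).

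Markers of other cells were also counted, and their part in the results above was not tested. Among all genes, 20.6% fell and 18.2% rose under VEH, and 28.9% fell and 23.0% rose under HDM. Counts of 1 of 4 or 2 of 8 are near these shares. All 4 endothelial markers fell in tumours in both arms (median -2.49 under VEH and -3.90 under HDM), as did 1 of 4 alveolar markers under VEH and 4 of 4 under HDM, and 4 of 4 airway markers under HDM. Summed alveolar markers were at 14600 to 34500 CPM in normal libraries, 1850 to 7190 CPM in VEH tumours and 37.0 to 2030 CPM in HDM tumours. Mesothelial markers fell for 3 of 4 under VEH and 1 of 4 under HDM, and cardiac muscle markers for 1 of 3 and 3 of 3, while adipocyte markers fell for 0 of 3 and 2 of 3. Of 6 macrophage markers 2 rose under VEH, Adgre1 (1.76 ± 0.50) and Csf1r (1.05 ± 0.25), and under HDM Adgre1 rose (1.31 ± 0.50) and Lyz2 fell (-2.04 ± 0.58). Of 4 markers of plasmacytoid dendritic cells, Bst2 (1.42 ± 0.37) and Runx2 (2.25 ± 0.64) rose under VEH and Runx2 (2.82 ± 0.65) rose under HDM, with Siglech and Ccr9 called in neither arm. Without tumour HDM replicate 3, 0 macrophage and 0 mesothelial markers were called under HDM (edgeR). Without the 4 libraries of conflicting prefixes, 1 alveolar, 0 airway and 0 cardiac muscle markers fell under HDM (edgeR). Their median log2 changes in that fit were -4.77, -6.68 and -5.27. With all libraries the alveolar median was -4.28 and the airway median -6.19. All 4 endothelial markers still fell in both arms without those libraries, where 9.23% of all genes fell under VEH and 18.0% under HDM. The 4 general leukocyte markers (Ptprc, Coro1a, Laptm5 and Cd52) were called in neither arm, with medians of 0.60 under VEH and -0.44 under HDM. T cell markers rose for 2 of 8 under VEH (Cd4 and Cd8a, median 1.53) and fell for 2 of 8 under HDM (Cd2 and Cd4, median -1.38). Under VEH 0 of the 8 rose without tumour replicate 1, without tumour replicate 3 or without the 4 libraries of conflicting prefixes, with medians of 1.48 to 1.58. Those fits called 3282 of 23204, 3470 of 23174 and 3534 of 22414 genes higher. Under HDM 1 fell without tumour replicate 3 (median -0.70), and 1 without those 4 libraries, where 4842 of 23096 and 4029 of 22414 genes did. In tumour HDM replicate 3 the 8 T cell markers summed to 3.21 CPM, against 29.1 CPM at the middle one of the 3 HDM tumours.

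Set against the leukocyte markers of the same library, the B cell genes were lower in every tumour library. The mean log2 CPM of the 8 members other than Cxcl13, minus that of the 4 leukocyte markers, ran from -3.97 to -2.97 in the 6 normal libraries. It was -6.15, -4.99 and -5.87 in VEH tumours and -5.47, -6.19 and -6.66 in HDM tumours. The normal and tumour ranges did not overlap, and the VEH and HDM tumours overlapped. The same difference for T cell markers ran from -5.19 to -3.82 in normal lung and from -3.95 to -3.51 in VEH tumours, which overlap. In HDM tumours it was -4.67, -4.71 and -7.13, the last of them, replicate 3, below every normal library. These are descriptions over libraries, with no test.

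**Figure D3:**
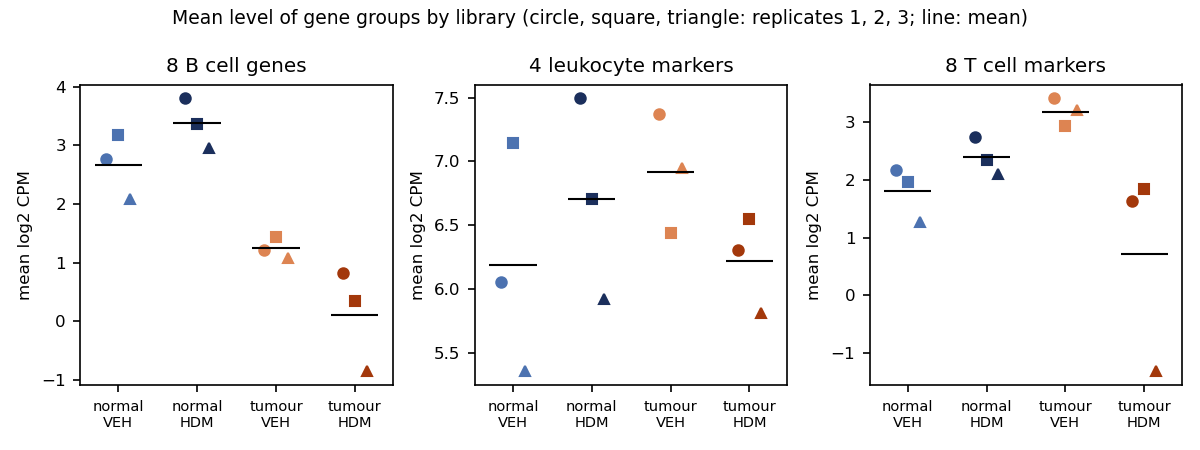
Mean log2 CPM (vertical axes) of the 8 B cell genes, the 4 leukocyte markers and the 8 T cell markers in each library by group (horizontal axis); points are libraries and lines group means. The B cell genes run from 2.08 to 3.81 in normal lung and from -0.85 to 1.44 in tumours, while the leukocyte markers overlap between tissues.

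Across the 6 normal libraries the members did not all follow one another. Correlations over these libraries mix 2 treatments and share the library's cell make-up, so they are given as description. Cd79a and Cd79b had a Pearson r of 0.966, and the median r of a member with the other 8 was 0.881 for Fcmr, 0.877 for Cd79b, 0.875 for Tnfrsf13c and 0.839 for Cd79a. The median was 0.713 for Cd22, 0.696 for Cxcr5, 0.658 for Ms4a1, 0.364 for Cxcl13 and 0.223 for Pax5. Pax5 was highest in normal VEH replicate 1 and normal HDM replicate 3, neither of which led in Cd79a, and Cxcl13 was highest in normal VEH replicate 1.

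Among 13111 genes ranked by likeness over the 6 normal libraries, those most like the mean of the 8 members were Bloc1s6 (r = 0.996), R74862 (0.985), Il7r (0.984), Stimate (0.984) and Iqsec1 (0.982). Il7r encodes the IL-7 receptor chain of lymphocytes. Over the 6 tumours the same correlations ran from -0.53 for Bloc1s6 to 0.748 for Il7r. The genes most like Cxcl13 were Fcrl2 (0.992), Ebi3 (0.991), Casp8 (0.986), Plp2 (0.973) and Rps16-ps2 (0.97), with -0.306 for Fcrl2 and 0.575 for Ebi3 over the tumours. These are the highest values of a long ranking, and no test was made of them.

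**Figure D4:**
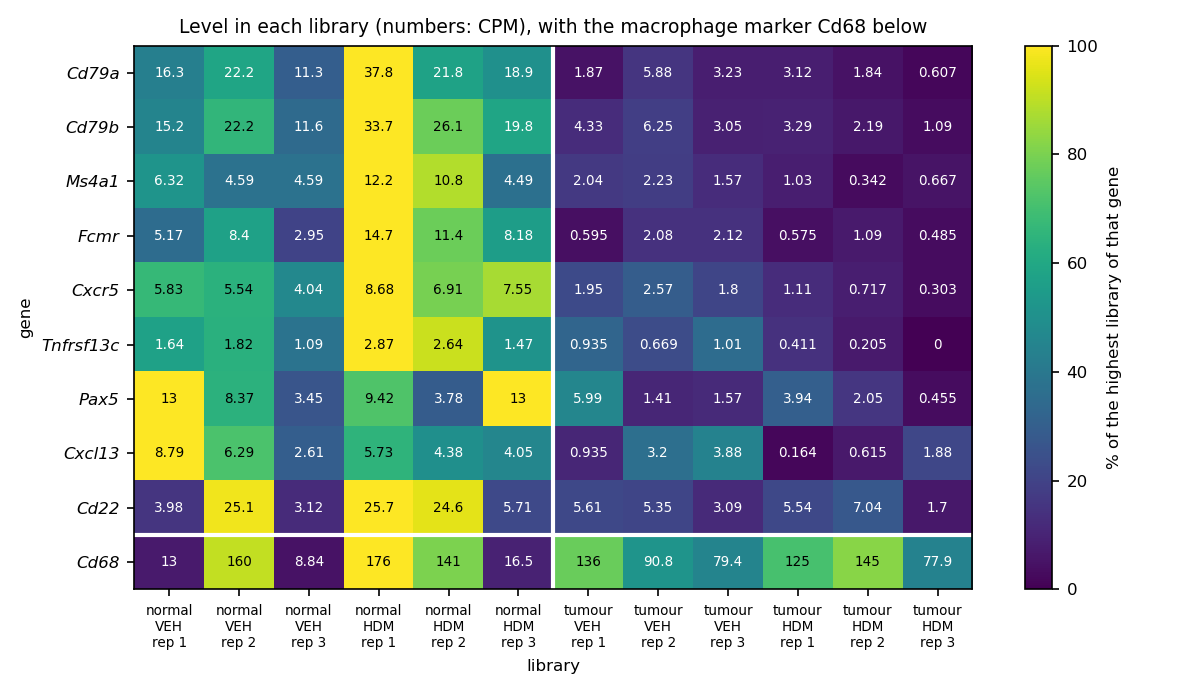
Level of the 9 genes and of the macrophage marker Cd68 (vertical axis) in each of the 12 libraries (horizontal axis); cell numbers are CPM and colour is the percent of the gene's highest library. Cd22 is at 24.6 to 25.7 CPM in normal VEH replicate 2 and normal HDM replicates 1 and 2, the libraries with 141 to 176 CPM of Cd68, and at 3.12 to 5.71 CPM in the other 3 normal libraries.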

How the data were processed

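The deposited table holds whole-number read counts per gene for 12 bulk RNA-seq libraries, per the file headers, with gene lengths. The submitters' processing notes name Trim Galore, STAR, Subread, featureCounts and the mm39 build, without versions. The strand setting and annotation were not given in the sources used here. Of 78298 identifiers, 78168 matched GENCODE M39. In each library 68.2 to 72.0% of counts from 1 to 20 were even, and among the members' 107 counts above 0 the share was 79.4%. Counting both reads of a pair would give such a pattern, which no source states. Counts as deposited were used, and halved counts were an alternative.

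Genes were filtered with filterByExpr (minimum count 10), scaled by TMM and fitted over all 4 groups with edgeR 4.0.16 quasi-likelihood in R 4.3.3, with adjustment over 22190 genes at 0.05. Standard errors are the log2 change over the square root of F. CPM uses TMM-scaled library sizes, and TPM the deposited lengths. Correlations used log2 CPM with a prior count of 2. The scripts were tested on simulated data.

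Named genes are all 9 members, the first 4 written of each list, and the 3 largest called changes of a list in a comparison. Most list genes are counted but not named, and some are not reported here. Members and lists were chosen with earlier results of these data known. Alternatives were other scalings, filters, DESeq2 1.42.0, blocks and left-out libraries.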

Additional observations from a re-analysis of the deposited data

How the results depend on the processing

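The direction of tumour against normal lung held for all 9 genes under HDM in every alternative run. Of them 6 to 9 were called (7 as reported, 9 with a DESeq2 Wald test), while 4029 to 7231 of all genes were called lower. Under VEH the direction held for all but Cd22. The 5 calls under VEH became 3 with no filter on low counts and 0 with the prefix as a block. They became 0 without the 4 libraries of conflicting prefixes, and 1 to 5 leaving out 1 library. Having no filter gave 3318 lower calls among 40856 genes. Leaving out 1 library gave 2451 to 4918 lower calls over all genes, against 4579 in the main fit. The replicate numbers did not pair the libraries: same-numbered libraries had correlated deviations of -0.355 to 0.303 over 18 pairs (median 0.076). Of 12 libraries, 5 correlated best with their own number. Libraries of the same prefix had values of -0.219 to 0.179 over 6 pairs (median 0.085), so the prefix did not clearly pair them either. With the replicate block 5 members were called under VEH, 9 under HDM and 0 elsewhere, Cd22 being -0.23 for HDM against VEH in tumours. That fit called 4118 of 22190 genes lower under VEH and 6123 under HDM. The DESeq2 Wald test called 3 members for HDM against VEH in tumours and 2 in the interaction. Every other alternative gave 0 there and in normal lung. Signs turned for Cd22, Pax5 and Cxcl13 alone, none of them called in the comparison concerned. Cd22 under VEH was 0.58 with the prefix block, 0.73 without the 4 libraries, and between -1.64 and 0.40 leaving out 1 library. For HDM against VEH in tumours Cd22 was -0.0022 with DESeq2 size factors, -0.0152 with no filter, -0.020 keeping genes with 10 or more counts in all libraries, -0.0003 by the Wald test, -2.31 with the prefix block, -0.58 without the 4 libraries, and -0.36 to 0.45 leaving out 1. Pax5 there ran from -1.24 to 0.54 leaving out 1 library. In normal lung Pax5 was -0.30 without the 4 libraries and -0.32 to 0.56 leaving out 1, and Cxcl13 ran from -0.67 to 0.082. In the interaction Pax5 ran from -1.30 to 0.48. The cause was not tested. Scaling by library size alone moved the median of all genes from -0.11 to 0.03 under VEH and from -0.08 to 0.10 under HDM. In the main fit, with TMM, the members relative to the median of all genes ran from -0.69 to -2.07 under VEH and -1.90 to -3.90 under HDM. Halving the counts, an alternative chosen after seeing the data, changed no count of calls. The low counts of Tnfrsf13c in HDM tumours limit the size of its change.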

Other observations

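The genes whose pattern over the 6 normal libraries was most like that of Cd22 were Cideb (r = 0.998), Cd68 (0.997), Aknaos (0.997), Hsd17b7 (0.995) and Itgax (0.994), a ranking made after the values of Cd22 were seen. Cd68 is a lysosomal protein of macrophages and Itgax an integrin of macrophages and dendritic cells. Itgax was at 162, 231 and 172 CPM in normal VEH replicate 2, normal HDM replicate 1 and normal HDM replicate 2, and at 20.4, 12.2 and 24.6 CPM in the other 3 normal libraries. In tumours, where Cd68 was at 77.9 to 145 CPM, Cd22 was at 1.70 to 7.04 CPM. Over the 6 tumours the correlation of Cd22 was 0.828 with Cd68, 0.768 with Itgax and 0.977 with Cideb. It was negative with the other genes of the ranking, at -0.319 with Aknaos and -0.336 with Hsd17b7.

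Jchain, the joining chain of secreted IgA and IgM, was at 592, 1080 and 646 CPM in those same 3 normal libraries and at 12.5, 4.46 and 5.01 CPM in the other 3. In tumours it was at 1.20 to 4.98 CPM under VEH and at 21.9, 47.1 and 2.85 CPM under HDM. Cd79b was also higher in those 3 libraries, at 22.2, 33.7 and 26.1 CPM against 15.2, 11.6 and 19.8 CPM in the others, a far smaller gap.

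The genes most like Pax5 over the normal libraries, ranked after its values were seen, were Tcea2 (r = 0.995), Ulk3 (0.991), P4ha3 (0.989), Zdhhc4 (0.985) and Nav1 (0.979). Over the tumours these correlations were -0.448, -0.079, 0.277, -0.544 and -0.201.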
